A study of Rattus norvegicus with 12 samples.

Results

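Receptors and ligands of neurotrophic factors were followed in cultured rat retinal ganglion cells (RGCs) after treatment with endothelins. The 9 genes were Ntrk2, Ntrk3, Ngfr, Ret, Gfra1, Cntfr, Lifr, Il6st and Bdnf. They were taken as every probe set whose only annotated symbol was one of these names, which gave 22 of 31042 probe sets and 9 of 14217 named genes. RGCs send the axons of the optic nerve. Here they were taken from Sprague-Dawley pups between postnatal days 4 and 6 and purified by panning on an antibody to their surface protein Thy-1.1. They grew for 7 days in serum-free medium with 50 ng/mL brain-derived neurotrophic factor (BDNF), 10 ng/mL ciliary neurotrophic factor (CNTF) and 5 ng/mL forskolin, which raises cyclic AMP, and the neurotrophic factors were then withheld overnight in all groups. Each of 3 groups was then given an endothelin for 24 h at 100 nM, the peptides being abbreviated ET-1, ET-2 and ET-3, and the control group, which the titles call untreated and the descriptions call vehicle-treated, received none. Every group had 3 Affymetrix Rat Genome 230 2.0 arrays numbered 1 to 3 as biological replicates. The labels do not say what a number stands for, so the p-values measure only the spread between these arrays. In the main fit this is the spread left after differences between the numbers were removed. The labels name no genetic change in the animals.

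Neurotrophins such as BDNF act through Trk receptor tyrosine kinases, which signal to the Ras-MAP kinase, PI3-kinase and phospholipase C-gamma pathways, and through the p75 receptor, a member of the tumour necrosis factor receptor family. GDNF binds the membrane-anchored co-receptor Gfra1, and the complex activates the receptor tyrosine kinase Ret. CNTF binds its own anchored receptor, Cntfr, which assembles with Lifr and Il6st (gp130) to activate JAK kinases and STAT3. BDNF, through Ntrk2, and CNTF are well known as survival factors for RGCs in culture. Endothelins are short vasoactive peptides of similar sequence that act on the endothelin A and B receptors, and ET-3 binds the A receptor more weakly than the other two.

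Signal here is the deposited MAS5 intensity, on a linear scale, and levels are not compared between probe sets because each has its own probes. Of the 22 probe sets, 13 from 6 genes passed a filter on mean signal (147.5, the median of all probe sets) and were tested. The other 9 did not pass: 4 of the 5 for Ntrk2, the 1 for Ngfr, and both of Cntfr and of Lifr. Array medians ran from 136 to 181 and trimmed means from 496.7 to 498.3. The replicate number entered the fit as a block because arrays were to be compared by it, and arrays that shared a number deviated together. Of 18 RGC markers listed, 16 were matched on the array, and these 16 passed the filter, among them Rbpms, Sncg and Thy1, while 6 photoreceptor and 3 bipolar cell markers all lay below it. The summed signal of 14 fibroblast, pericyte and smooth muscle markers (1 of them, Thy1, also an RGC marker) was 60960 to 66353 in the 4 arrays of replicate 1. It was 20672 to 24912 in the 8 arrays of replicates 2 and 3, under every treatment. In a bulk sample, fewer cells of a type and less RNA per cell cannot be told apart.

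Of the 13 tested probe sets, 2 passed the test in at least 1 contrast with untreated, both as small decreases, in the receptors Ret and Ntrk2. Ngfr, Cntfr and Lifr lay below the filter and were not tested with them. No member passed with ET-1 or ET-2, and 1 passed with ET-3, a Ret probe set that fell by 20.2%. Averaged over the 3 endothelins, Ret fell by 16.2% and Ntrk2 by 13.4%. The test was limma on log2 signal with the replicate block, with p adjusted by the Benjamini-Hochberg method over 15521 probe sets and a threshold of 0.05. Among all probe sets tested, 1.73% passed with ET-1, 1.6% with ET-2, 2.64% with ET-3 (0.509% lower) and 4.88% with the mean of the endothelins (1.35% lower). The 4 contrasts share the 3 untreated arrays. The median log2 change of the 13 member probe sets was -0.07 with ET-1, -0.15 with ET-2 and -0.11 with ET-3, against -0.03, -0.02 and -0.03 for all probe sets tested. With no replicate block, limma called 0 of 15521 probe sets (0%) in each of these 4 contrasts. At an unadjusted p under 0.05 that fit had 0, 0, 1 and 1 of the 13 members (both times Bdnf 1368678_at), and 237, 223, 297 and 397 of all probe sets, for ET-1, ET-2, ET-3 and their mean.

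**Figure D1:**
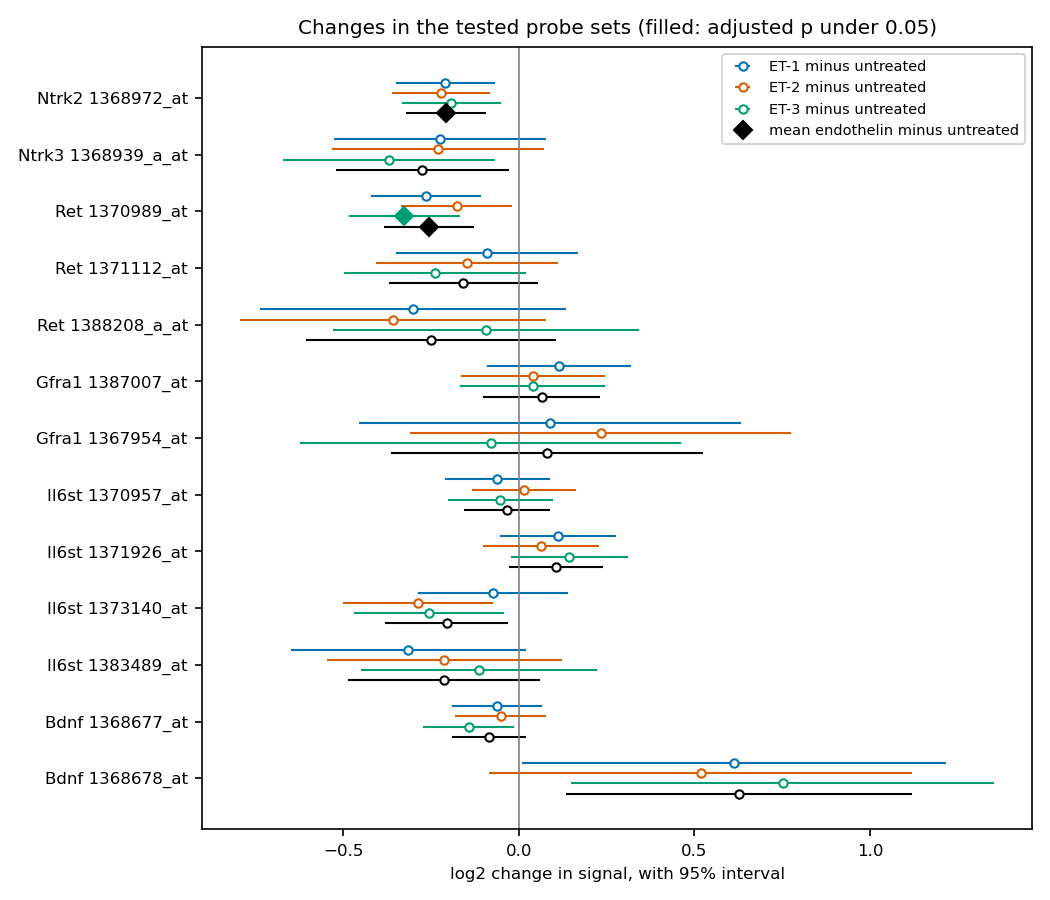
Log2 change in signal against untreated (x axis) for the 13 tested probe sets of 6 genes (y axis), with 95% intervals from limma with the replicate block; colours mark ET-1, ET-2, ET-3 and their mean, and filled diamonds mark an adjusted p under 0.05. The filled points are Ret 1370989_at with ET-3 (-0.32) and with the mean of the endothelins (-0.26), and Ntrk2 1368972_at with that mean (-0.21).

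Among the Trk receptors, Ntrk2 encodes TrkB, the receptor of BDNF. Its brightest probe set, 1368972_at, had a signal of 1473, 1753 and 1736 in the untreated arrays of replicates 1, 2 and 3. It read 1315, 1391 and 1588 with ET-1, 1233, 1522 and 1509 with ET-2, and 1320, 1426 and 1599 with ET-3. Every endothelin array was below the untreated array of its own number, although the groups overlapped because untreated replicate 1 was low. Means were 1654 ± 157 untreated, 1431 ± 141 with ET-1, 1421 ± 163 with ET-2 and 1448 ± 141 with ET-3 (SD, n = 3).

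The log2 change in Ntrk2 was -0.21 ± 0.065 with ET-1, -0.22 ± 0.065 with ET-2 and -0.19 ± 0.065 with ET-3 (SE), with adjusted p of 0.145, 0.122 and 0.144 by limma. For the mean of the endothelins it was -0.21 ± 0.053, with a 95% interval from -0.32 to -0.09 and an adjusted p of 0.0428 by limma. All 9 differences from untreated within a replicate number were negative, from -0.33 to -0.12. The same held for 8.05% of all probe sets tested, and in all for 3 member probe sets, this one, Ret 1370989_at and Il6st 1373140_at. The Ntrk2 call was kept in 4 of 22 other settings and was lost in 14 of the 15 settings that left out arrays (limma's adjusted p from 0.0505 to 0.224), all but the one without ET-2 replicate 2.

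The other 4 Ntrk2 probe sets lay below the filter, and which receptor forms they read is not given in the sources used here. One of them, 1370687_a_at, separated the replicate numbers. It read 361, 316, 314 and 309 in the replicate 3 arrays of the untreated, ET-1, ET-2 and ET-3 groups, and 14.2 to 70.3 in the 8 arrays of replicates 1 and 2. Replicate 3 was 13.9 times the geometric mean of the others, whichever the treatment. The remaining 3 (1397246_at, 1383135_at and 1370652_at) stayed between 1.77 and 118 on all arrays.

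Ntrk3 encodes TrkC, the receptor of the third neurotrophin of this family. Its probe set 1368939_a_at read 326, 296 and 203 untreated, 221, 258 and 215 with ET-1, 233, 251 and 208 with ET-2, and 215, 220 and 193 with ET-3. The untreated group was the most spread (275 ± 64.4, SD, n = 3), and its replicate 3 array lay within the range of the endothelin arrays. The log2 change was -0.22 with ET-1, -0.23 with ET-2 and -0.37 ± 0.14 with ET-3 (SE), and none passed (limma's adjusted p of 0.469, 0.443 and 0.191). The 95% intervals ran from -0.53 to 0.08 with ET-1 and from -0.67 to -0.07 with ET-3.

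Ngfr encodes p75, the receptor shared by all neurotrophins and their precursors. Its probe set 1368148_at lay below the filter, at 132, 133 and 94.2 untreated, 89.6, 123 and 108 with ET-1, 110, 181 and 132 with ET-2, and 110, 127 and 105 with ET-3. The groups overlapped fully, and the 9 differences from untreated were negative in 5 cases and positive in 4. In a fit over all 31042 probe sets the mean change was 0.00 ± 0.17 on the log2 scale (SE; 95% interval -0.36 to 0.37; limma's adjusted p of 0.994).

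Ret encodes the tyrosine kinase that transmits GDNF family signals. The sequence around its annotated start is shown because Ret is the member whose decrease passed the test with ET-3. It is the RefSeq window from 250 bases before to 50 after the start, on the minus strand at chr4:153040507-153040806 of the GRCr8 assembly, with CpG dinucleotides in capitals.
Ret: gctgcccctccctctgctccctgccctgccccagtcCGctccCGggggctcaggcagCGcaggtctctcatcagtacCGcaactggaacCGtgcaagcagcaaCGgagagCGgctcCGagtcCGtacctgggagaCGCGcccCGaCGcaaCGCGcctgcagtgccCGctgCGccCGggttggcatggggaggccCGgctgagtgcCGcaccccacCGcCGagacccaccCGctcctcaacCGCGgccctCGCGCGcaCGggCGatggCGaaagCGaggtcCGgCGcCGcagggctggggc
The window is 74% G and C (median of all promoters of this length 51.7%) and holds 35 CpG, more than 93.9% of 33469 promoters, whose median was 7. It held no match on either strand to the GC box GGGCGG (in 33.1% of promoters), the cyclic AMP response core TGACG (21.2%), the full element TGACGTCA (1.83%), the AP-1 motif TGANTCA (7.33%) or the TATA motif TATAAA (14.2%). The full element contains the core.

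The brightest Ret probe set, 1370989_at, had a signal of 3841, 3489 and 2532 in the untreated arrays. It read 3094, 2517 and 2515 with ET-1, 3305, 2865 and 2483 with ET-2, and 3075, 2635 and 2131 with ET-3. Replicate 3 was low in every group, and each endothelin array was below the untreated array of its number, in replicate 3 by as little as 0.01 on the log2 scale (ET-1). The groups overlapped across numbers.

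With ET-3 the log2 change in Ret was -0.32 ± 0.073 (SE; 95% interval -0.48 to -0.17; limma's adjusted p of 0.0340). With ET-1 it was -0.26 and with ET-2 -0.18, with adjusted p of 0.0976 and 0.252 by limma. For the mean of the endothelins it was -0.26 ± 0.059, with an adjusted p of 0.0282. The ET-3 call was kept in 9 of 23 other settings and ended without replicate 1 or 2, without untreated replicate 1 or 2, and without any ET-2 or ET-3 array (limma's adjusted p from 0.0506 to 0.196). The call for the mean was kept in 13 of 22 and ended without replicate 1 or 2, untreated replicate 1 or 2, ET-1 replicate 1, or ET-2 replicate 1 or 2 (0.0510 to 0.218). Without the block the unadjusted p was 0.110 for ET-3 and 0.123 for the mean.

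The other Ret probe sets were lower on average too but did not pass. Probe set 1371112_at read 732, 634 and 643 untreated, 566, 583 and 751 with ET-1, 532, 683 and 607 with ET-2, and 523, 569 and 612 with ET-3. Its log2 change was -0.09, -0.15 and -0.24 with ET-1, ET-2 and ET-3, with 7 of 9 differences negative. Probe set 1388208_a_at was at -0.30, -0.36 and -0.09, and its 4 replicate 3 arrays (256 to 356) were all above its 8 other arrays (115 to 199). The change of 1370989_at was thus seen with a passing test in 1 of 3 Ret probe sets. After replicate means were removed, its Pearson correlation over the 12 arrays was 0.63 with 1371112_at and 0.27 with 1388208_a_at, as a description.

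Gfra1 encodes the co-receptor that binds GDNF for Ret. Its probe set 1387007_at read 483, 431 and 558 untreated, 490, 448 and 670 with ET-1, 451, 478 and 587 with ET-2, and 491, 420 and 611 with ET-3. The groups overlapped, and the log2 change was 0.11, 0.04 and 0.04 with ET-1, ET-2 and ET-3 (SE 0.095, limma's adjusted p from 0.601 to 0.873). For the mean of the endothelins the 95% interval was -0.10 to 0.23. The second probe set, 1367954_at, was 3.0 times as high in replicate 3 (262, 433, 382 and 274 in the untreated, ET-1, ET-2 and ET-3 arrays) as in replicates 1 and 2 (74.9 to 146), and showed no change past the test.

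**Figure D2:**
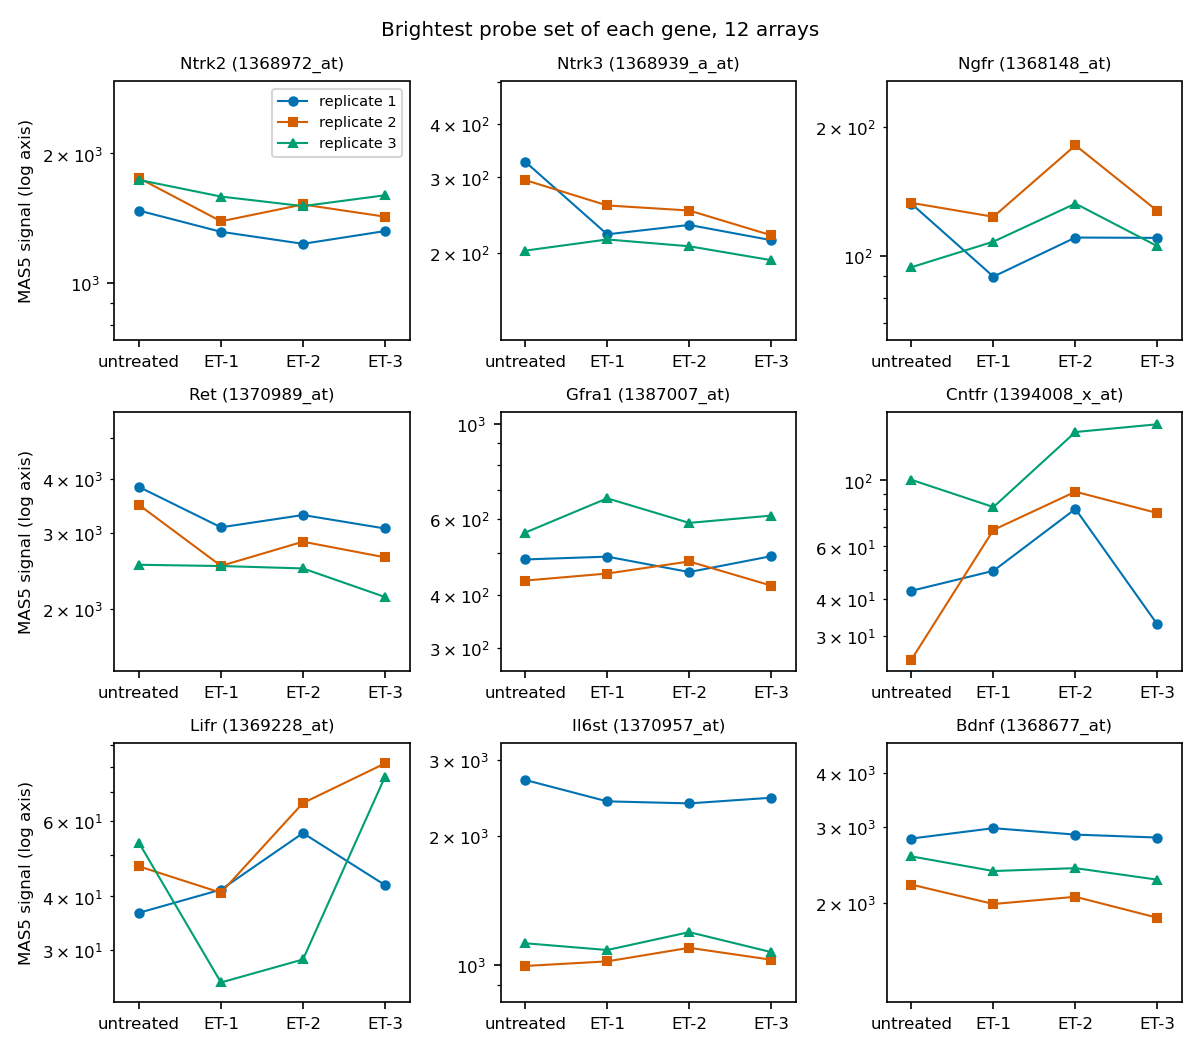
MAS5 signal (y axis) of the brightest probe set of each gene on the 12 arrays, by group (x axis), with 1 line per replicate number. The 3 lines of Ntrk2 and Ret start higher in untreated than they stand in each endothelin group, whereas the replicate 1 line of Il6st (2379 to 2697) stands above the other two (996 to 1194) in all 4 groups.

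Il6st encodes gp130, the signalling subunit shared by the receptors of CNTF, LIF and interleukin-6. Its brightest probe set, 1370957_at, differed mainly by replicate number. It read 2697, 996 and 1125 untreated, 2405, 1021 and 1085 with ET-1, 2379, 1098 and 1194 with ET-2, and 2452, 1030 and 1073 with ET-3. Replicate 1 was 2.31 times the geometric mean of the others, and 98.8% of the variance of log2 signal lay between replicate numbers against 0.324% between groups.

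In the other 3 Il6st probe sets replicate 1 was also the highest, at 1.84 (1371926_at), 2.60 (1373140_at) and 2.04 times (1383489_at) the others. A difference of at least 2-fold between replicate 1 and the others was found in 4.88% of the probe sets tested. Over the 13 member probe sets, 4 of them of Il6st, the median share of variance was 86.7% between replicate numbers and 5.44% between groups. Over all probe sets tested it was 68.7% and 10.4%. By brightest probe set, the share between numbers was 55.5% for Ntrk2, 40.5% for Ntrk3 and 64.0% for Ret. It was 86.7% for Gfra1, 98.8% for Il6st and 90.5% for Bdnf. The shares between groups were 35.6%, 36.6%, 27.1%, 4.02%, 0.324% and 5.44% in the same order. The fibroblast, pericyte and smooth muscle markers were 2.77 times higher in replicate 1 as a summed signal, and the RGC markers lower (102196 to 106462, against 122900 to 156870 in the other arrays). Their part in the Il6st difference was not tested.

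Against untreated, the 4 Il6st probe sets did not move together. Probe set 1371926_at was at 0.11, 0.06 and 0.14 on the log2 scale with ET-1, ET-2 and ET-3, while 1373140_at was at -0.07, -0.29 and -0.26. The latter read 1146, 379 and 510 untreated, 1061, 354 and 508 with ET-1, 910, 284 and 474 with ET-2, and 1009, 326 and 396 with ET-3. It was lower than untreated in each of the 9 differences but did not pass (limma's adjusted p of 0.775, 0.180 and 0.199). Probe set 1383489_at was at -0.31, -0.21 and -0.11, and 1370957_at at -0.06, 0.02 and -0.05. Once replicate means were removed, correlations between pairs of these probe sets over the 12 arrays ran from -0.65 to 0.21, where they had been 0.62 to 0.96 before.

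**Figure D3:**
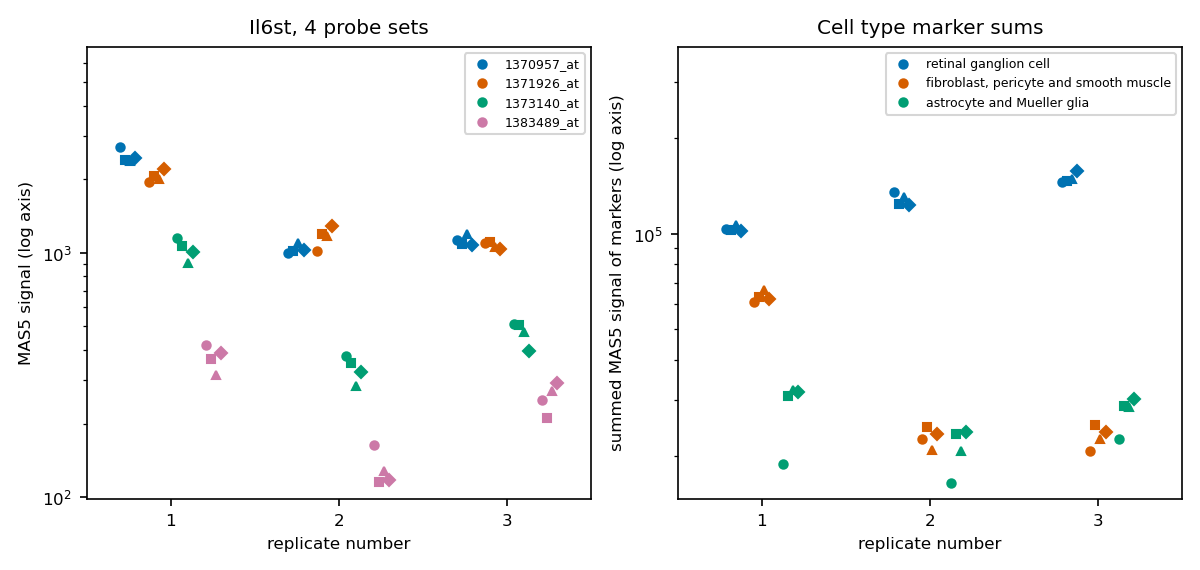
Left, MAS5 signal (log axis) of the 4 Il6st probe sets by replicate number (x axis); right, summed MAS5 signal (log axis) of RGC, glial and fibroblast, pericyte and smooth muscle markers. Colours mark probe sets or marker lists, and shapes mark untreated (circle), ET-1 (square), ET-2 (triangle) and ET-3 (diamond); Il6st and the fibroblast list are high in replicate 1 in all groups, and the glial list is lowest in the untreated array of each number.

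When each array was centred on its median, 3 members passed with ET-2: Il6st 1373140_at, Ntrk2 1368972_at (log2 change -0.32, adjusted p 0.0295) and Ret 1370989_at (-0.27, adjusted p 0.0442). Array medians in the ET-2 group lay above untreated by 0.14 and 0.15 in replicates 2 and 3 and by 0.00 in replicate 1. Centring changed the ET-2 calls over all probe sets from 50 lower and 199 higher to 1025 lower and 193 higher, and those for the mean of the endothelins from 209 and 549 to 1066 and 426. For ET-3 the split went from 79 lower and 331 higher to 218 and 228. None of the member changes called in the main fit changed sign in any setting, though several settings leave the estimate itself unchanged.

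Cntfr encodes the CNTF-binding receptor subunit and Lifr the LIF receptor that joins it. The Cntfr probe set 1392749_at read 6.73, 16.6 and 12.9 untreated, 15.0, 56.5 and 36.7 with ET-1, 21.5, 125 and 47.6 with ET-2, and 21.0, 57.3 and 162 with ET-3. All endothelin arrays were above the untreated array of their number, a pattern found in 4.32% of the probe sets below the filter. Only the ET-3 array of replicate 3 exceeded the filter signal, and detection calls were not used here.

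Cntfr 1392749_at was not tested in the main fit. Its untreated signals were far below the array medians and are not shown to be above background, so the size of the difference is not settled. In a fit over all 31042 probe sets, added after the values were seen, the log2 difference for the mean of the endothelins was 2.00 as deposited (limma's adjusted p of 0.0352; 2.03% of probe sets passed) and 0.91 after 32 was added to each signal (adjusted p 0.130). It did not pass with ET-1, ET-2 or ET-3 alone (0.313, 0.109 and 0.0623). The call was kept in 4 of 20 other settings. The adjusted p was 0.232 without replicate 2. The second probe set, 1394008_x_at, read 42.6, 25.0 and 101 untreated and 32.8 to 155 over the endothelin arrays, and was at 0.73 ± 0.32 (adjusted p 0.295 by limma). Lifr lay between 25.2 and 81.5 (1369228_at) and between 12.9 and 57.1 (1395957_at) over the 12 arrays, with overlapping groups and mean changes of 0.07 and 0.75 that did not pass (limma's adjusted p of 0.952 and 0.419).

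**Figure D4:**
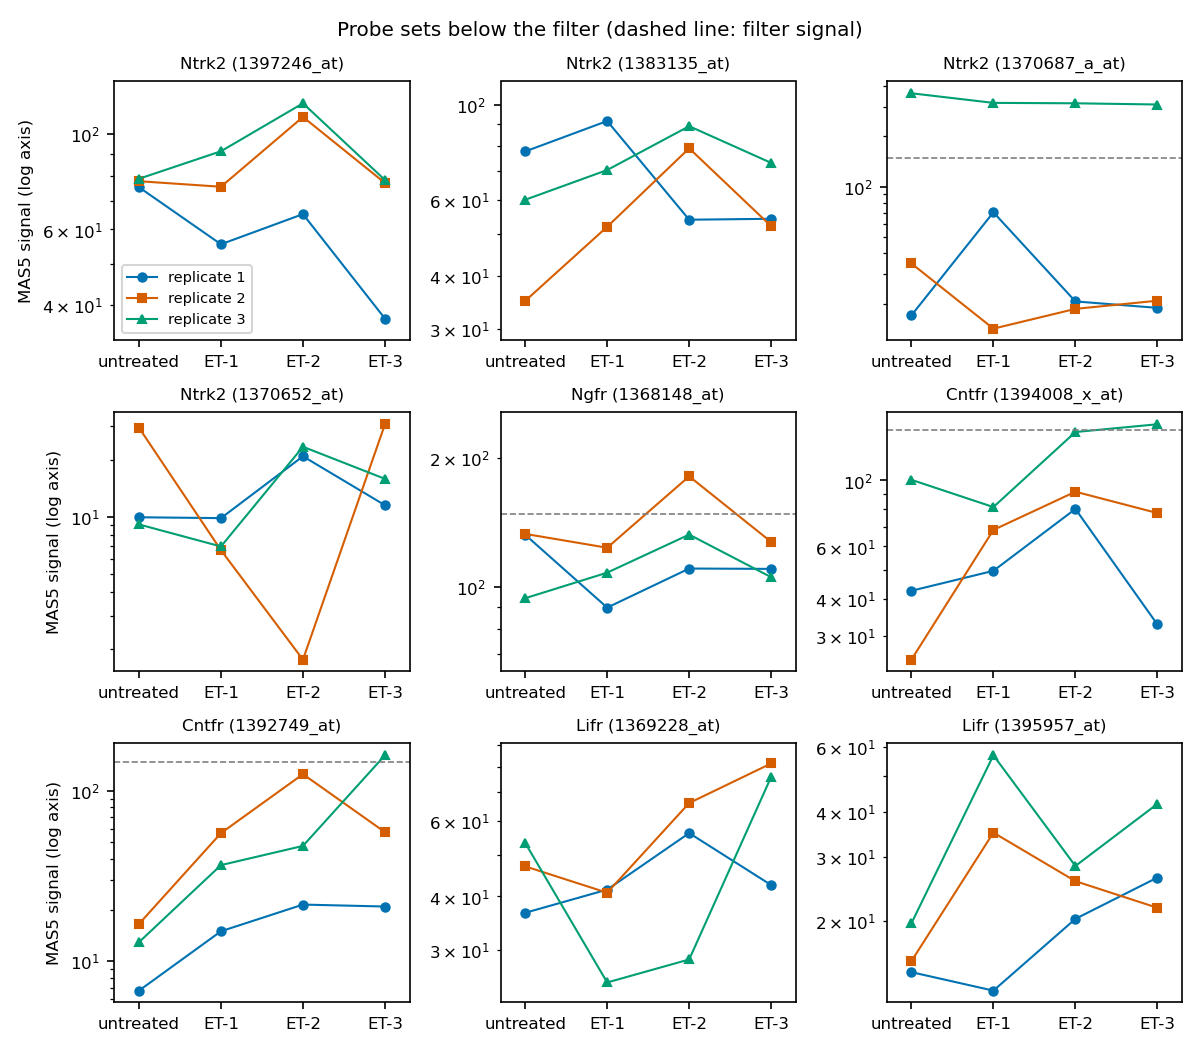
MAS5 signal (log axis) of the 9 member probe sets below the filter, by group (x axis) with 1 line per replicate number; the dashed line is the filter signal of 147.5. Ntrk2 1370687_a_at is above the line in the 4 arrays of replicate 3, and all 3 lines of Cntfr 1392749_at are lowest in the untreated group.

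Bdnf, the ligand of Ntrk2, was also measured in the cells. RefSeq has 6 start windows for it, and the one below is shown because it holds the cyclic AMP response core (as CGTCA, in capitals), which the Ret window lacks; it lies on the plus strand at chr3:116637608-116637907 of GRCr8.
Bdnf: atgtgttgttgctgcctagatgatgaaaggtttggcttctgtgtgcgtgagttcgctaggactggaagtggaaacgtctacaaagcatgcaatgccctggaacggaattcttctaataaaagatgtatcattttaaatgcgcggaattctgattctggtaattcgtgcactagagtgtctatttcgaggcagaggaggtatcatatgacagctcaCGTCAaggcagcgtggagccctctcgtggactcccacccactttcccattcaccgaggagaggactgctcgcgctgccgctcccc
The core starts 35 bases before the annotated start, and the arrays do not show which start was used. It is found in 21.2% of promoters, and the other Bdnf windows and those of Gfra1, Lifr and Il6st held no match. The brightest probe set, 1368677_at, read 2818, 2202 and 2561 untreated, 2979, 1985 and 2368 with ET-1, 2878, 2063 and 2405 with ET-2, and 2833, 1844 and 2261 with ET-3. The groups overlapped, and the log2 change was -0.06, -0.05 and -0.14 (SE 0.059; limma's adjusted p of 0.668, 0.718 and 0.229).

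The second Bdnf probe set, 1368678_at, read 194, 176 and 89.9 untreated, 190, 236 and 244 with ET-1, 165, 203 and 269 with ET-2, and 284, 198 and 259 with ET-3. The untreated array of replicate 3 was the lowest of the 12. The log2 change was 0.61, 0.52 and 0.75 with ET-1, ET-2 and ET-3 (SE 0.28), and none passed (limma's adjusted p of 0.315, 0.379 and 0.182). Within replicate 3 the differences were 1.44, 1.58 and 1.53, and within replicate 1 they were -0.02, -0.23 and 0.55. Without untreated replicate 3 the change for the mean of the endothelins went from 0.63 to 0.18. The 2 Bdnf probe sets correlated at -0.54 over the 12 arrays after replicate means were removed, as a description.

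The 3 endothelins were compared with each other at the same dose and time. No member passed the test in any pair, nor did any of the 15521 probe sets, a share of 0% (limma, 3 pairs of endothelins, each adjusted over all probe sets; 0 members and 574, 347 and 583 probe sets had an unadjusted p under 0.05 for ET-2 against ET-1, ET-3 against ET-1 and ET-3 against ET-2). For Ntrk2 1368972_at the difference was -0.01 (95% interval -0.15 to 0.13) between ET-2 and ET-1, 0.02 (-0.12 to 0.16) between ET-3 and ET-1, and 0.03 (-0.11 to 0.17) between ET-3 and ET-2. For Ret 1370989_at it was 0.09 (-0.07 to 0.24), -0.06 (-0.22 to 0.10) and -0.15 (-0.31 to 0.01). The widest differences among the 13 probe sets were -0.31 for Gfra1 1367954_at (interval -0.86 to 0.23) and 0.26 for Ret 1388208_a_at (-0.17 to 0.70), both between ET-3 and ET-2. That Ret passed with ET-3 and not with ET-1 or ET-2 is therefore not a difference between the peptides past the test.

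In some marker lists of other cells, single genes or the summed signal differed with treatment as well as with replicate number. The lists were not tested as sets. The summed signal of 11 astrocyte and Müller glia markers was 18816, 16341 and 22605 in untreated replicates 1, 2 and 3. In the endothelin arrays it was 30788 to 32095 in replicate 1, 20654 to 23806 in replicate 2 and 28525 to 30112 in replicate 3. Of its 5 tested genes, Vim, Gja1 and Clu, which made up most of the sum, were higher with the mean of the endothelins. Slc1a3 (0.08) and Glul (-0.02) did not pass (limma's adjusted p of 0.787 and 0.930). Gfap, Aqp4, Rlbp1, S100b, Aldh1l1 and Slc1a2 were below the filter. Of the 16 RGC markers 1 was lower (Eomes) and 0 higher, with a median log2 change of -0.06. Of 11 tested fibroblast, pericyte and smooth muscle markers, Pdgfrb, Acta2 and Tagln were higher and Col3a1 and Ogn lower. The summed signal of 9 amacrine cell markers was below the untreated array of its number in all 9 endothelin arrays: 10862 against 9866 to 10051 in replicate 1, 11056 against 10393 to 10561 in replicate 2, and 11735 against 10543 to 11567 in replicate 3. Pax6 (median signal 7168) and Calb2 (2101) made up most of this sum, and Slc32a1, Tfap2a and Chat were below the filter. None of the 6 tested amacrine genes passed (median log2 change -0.08). Of 3 tested endothelial markers Kdr was lower (-0.58), with Plvap at -0.55 and Eng at 0.45, and Pecam1, Cldn5 and Vwf were below the filter. Of 2 tested oligodendrocyte and Schwann cell markers Cldn11 was lower (-0.88), with Mbp at -0.04, and Sox10, Olig1 and Olig2 were below the filter. None of 6 tested microglia and macrophage markers passed. The part of these shifts in the decreases of Ret and Ntrk2 was not tested.

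Around the receptors, 8 lists of other pathway genes gave 92 tested genes of 120 matched. With ET-1, 2 were higher and 1 lower, with ET-2 2 and 1, with ET-3 6 and 0, and with the mean of the endothelins 7 and 3. Among all 9425 tested genes the counts were 173 and 18, 140 and 36, 239 and 44, and 379 and 118. The lists were chosen with earlier results of these data known, so the counts within a list are descriptions. The median change of the 92 genes for the mean was 0.01. No call was found among the 8 tested genes listed with neurotrophin ligands and receptors, none of which is a neurotrophin. Of these, Sorcs1 was at -0.27 ± 0.13, Nradd at 0.12 and Rtn4 at 0.06 (adjusted p of 0.260, 0.399 and 0.459 by limma). Nor was a call found among the 3 tested genes listed with GDNF family ligands and receptors: Ncam1 (-0.12), Gfra2 (0.02) and Sdc3 (-0.03). The ligand genes Ntf3, Ntf4, Gdnf, Nrtn, Lif, Ctf1 and Osm lay below the filter.

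Of 24 transducers of Trk and Ret, 1 rose and 2 fell with the mean of the endothelins. Among all 9425 tested genes, 379 rose and 118 fell. Plcg1, the phospholipase C-gamma that binds activated Trk receptors, read 1532, 1631 and 1203 untreated, 1189, 1293 and 951 with ET-1, 1146, 1209 and 961 with ET-2, and 1220, 1402 and 1125 with ET-3. All 9 differences were negative, and it fell by 0.35 with ET-1, 0.39 with ET-2 and 0.32 with the mean on the log2 scale (limma's adjusted p of 0.0180, 0.0134 and 0.00496). The adaptor Shc2 fell by 0.40 with the mean (adjusted p 0.0261). The related adaptor Shc1 rose by 0.52 with ET-3 and 0.39 with the mean (adjusted p of 0.0460 and 0.0458), from 1148, 547 and 537 untreated to 1890, 813 and 640 with ET-3. For the mean, the call of Plcg1 ended without replicate 1 or 2 (limma's adjusted p of 0.0711 and 0.0921), and those of Shc2 and Shc1 ended without any 1 of the 3 numbers (0.0813 to 0.139 and 0.0673 to 0.385). The change in Shc1 for the mean was 0.26 without replicate 1 or without its untreated array.

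Among the 4 tested cytokines and receptors of the CNTF and LIF family, Il6 rose and Cntf, Il6r and Il11ra1 did not pass. Il6, interleukin-6, a cytokine that signals through gp130, read 184, 106 and 220 untreated, 3102, 284 and 368 with ET-1, 3573, 198 and 281 with ET-2, and 3388, 317 and 331 with ET-3. The 3 endothelin arrays of replicate 1 stood far above the other 9. The log2 change for the mean was 2.02 ± 0.46 (SE; limma's adjusted p of 0.0249; 0.114 without replicate 2). It was 0.93 without replicate 1 or without untreated replicate 1 (adjusted p of 0.0332 and 0.0132). Of 7 JAK-STAT genes, Pias3, an inhibitor of STAT3, fell by 0.30 with the mean (adjusted p 0.0326; 0.105 to 0.206 without any 1 of the 3 numbers), and Stat3 (-0.14), Jak1 (-0.04) and Jak2 (0.03) did not pass. Of 14 adaptors of p75, Adam17, the protease that cleaves p75, rose by 0.60 with the mean (limma's adjusted p 0.0253). Without replicate 1, or without untreated replicate 1, it was 0.32 (adjusted p of 0.271 and 0.124), and without replicate 2 it was 0.70 (0.101).

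Of 19 genes that respond to neurotrophins or gp130 cytokines, 4 rose and 0 fell with the mean of the endothelins. The counts among all 9425 tested genes were 379 and 118, and this list was chosen with earlier results of these data known. Timp1, a metalloproteinase inhibitor, read 2854, 1206 and 1049 untreated, 8763, 2313 and 1598 with ET-1, 8717, 2101 and 1496 with ET-2, and 9489, 1917 and 1594 with ET-3. It rose by 1.05, 0.97 and 1.0 on the log2 scale (limma's adjusted p of 0.00817, 0.0188 and 0.0101), and each endothelin array was above the untreated array of its number. Without replicate 1 the change with ET-3 was 0.64 (adjusted p 0.0150). The transcription factor Egr1 rose by 0.80 with ET-1 and 0.72 with ET-3 (0.67 with ET-2, adjusted p 0.0789), the phosphatase Dusp1 by 0.27 with ET-2 and 0.29 with ET-3, and the protease inhibitor A2m by 0.46 with ET-3. The other tested Dusp1 probe set was at 0.17 for the mean and did not pass (limma's adjusted p of 0.522). The A2m change with ET-3 was 0.24 without replicate 2 and 0.30 without untreated replicate 2 (limma's adjusted p of 0.279 and 0.111). The immediate early gene Fos (-0.01), Vgf (0.06) and Npy (-0.04), other genes that BDNF induces, did not pass. Egr2, Junb and Cebpd of this list did not pass either. Egr2 read 113, 119.5 and 195 untreated and 318, 232 and 188.5 with ET-1. Cebpd read 1466, 318 and 332 untreated and 3164, 547.5 and 403 with ET-1. Over the 19 genes, 13 changes were positive and 6 negative for the mean, against 4157 and 5268 over all 9425 tested genes. Of 13 genes of neurotrophin processing and transport, Mmp9, a protease that can cleave the BDNF precursor, passed with ET-3 (0.62, adjusted p 0.0474 by limma; 0.0704 to 0.328 without any 1 of the 3 numbers). That change was 0.41 without replicate 2, and the other tested Mmp9 probe set was at 0.29 for the mean (adjusted p 0.142 by limma). In the endothelin arrays Timp1, Egr1, A2m, Il6, Adam17 and Shc1 were highest in replicate 1, as the fibroblast, pericyte and smooth muscle markers were, and the part of the cells with these markers in their change was not tested. All 22 calls of these 11 pathway genes were lost with no replicate block. Each was also lost in 1 to 14 of the 15 settings that left out arrays, except that of Timp1 for the mean of the endothelins, which was kept in all 15. None changed sign in any setting, though several settings leave the estimate itself unchanged.

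**Figure D5:**
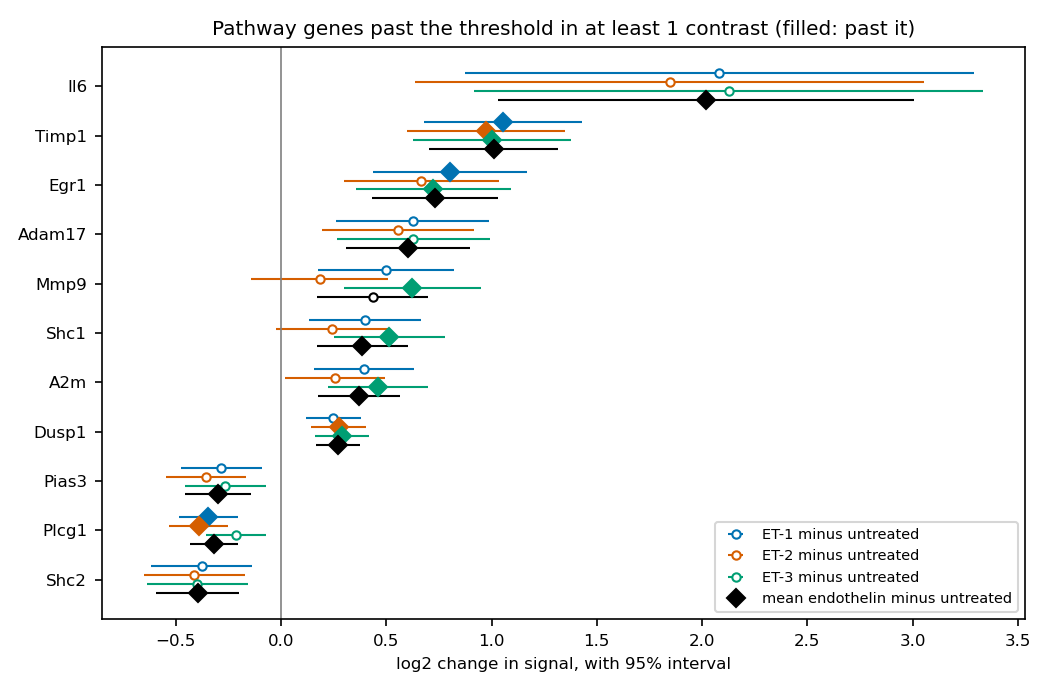
Log2 change in signal against untreated (x axis), with 95% intervals from limma with the replicate block, for the 11 pathway genes (y axis) that passed in at least 1 contrast; filled diamonds mark an adjusted p under 0.05. Timp1 is near 1.0 with each endothelin, Il6 has the widest intervals around 2.02, and Plcg1, Shc2 and Pias3 lie below 0.

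The genes whose pattern over the 12 arrays was most like that of each tested member were found by Pearson correlation of log2 signal after the mean of each replicate number was removed. For Ntrk2 they were Slc12a5 (r = 0.98), the neuronal chloride transporter, and Tmem276 (0.97). For Ret they were Zdhhc2 and Plcb4 (both 0.93), and for Ntrk3 Cd99l2 (0.95) and Inpp1 (0.94). For Gfra1 they were Accs (0.91) and Igf2bp3 (0.87), for Il6st Trib3 (0.93) and Klhl24 (0.91), and for Bdnf Fam3c (0.92) and Prkag1 (0.87). These are descriptions over 12 arrays, the highest values among 9425 genes, and the arrays share treatment, number and scaling.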

How the data were processed

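Affymetrix Rat Genome 230 2.0 arrays of 12 samples (4 groups of 3) were analysed from the deposited table, which holds 1 intensity per probe set and array; the submitters' processing notes name MAS5. The sources used here do not give its version or settings. On the linear scale these deposited intensities had near-equal trimmed means (2% cut at each end), and log2 was taken with no further normalization. Probe sets were named from GEO's platform annotation (20826 with 1 symbol, 436 with several, 9780 with none), and all 22 member probe sets matched RefSeq by Entrez ID.

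The 15521 probe sets with a mean log2 signal at or above the median were fitted with limma 3.58.1 in R 4.3.3 (4 group means, replicate number as a block, eBayes with trend). The tests were two-sided, with Benjamini-Hochberg adjustment over these probe sets. The block was part of the main design because arrays were to be compared by replicate number. Deviations from the group means correlated at 0.684 to 0.912 in 18 pairs of arrays from different groups that shared a number and at -0.706 to -0.0555 in 36 such pairs that did not, and at -0.758 to -0.232 in 12 pairs within a group. Deviations from a group mean cancel out within the group, so the negative values follow in part from this centring. The median residual SD was 0.127 with the block (6 degrees of freedom) and 0.25 without it (8). The pairing rests on the values of the 18 pairs that shared a number, since the labels do not define the number.

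All member probe sets were named; a gene was represented by its brightest probe set in counts of genes. Pathway genes were named if they passed in at least 1 contrast, with up to 3 others per list by unadjusted p. Cntf, Il6r, Il11ra1, Stat3, Jak1, Jak2, Fos, Vgf, Npy, Egr2, Junb and Cebpd were named outside that rule, after their values were seen. The members and lists were chosen with earlier results of these data known. Alternatives were no block, median centring, quantile normalization, a pseudocount of 32, no filter, a stricter filter, no intensity trend, only the groups of a contrast, and leaving out each array or replicate number. Of the scripts, the limma fit was tested on simulated data, for the mean of the endothelins against untreated. The number of arrays limits the precision.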

Additional observations from a re-analysis of the deposited data

How the results depend on the processing

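The member calls depended on several settings, the replicate block among them. With no replicate block the count of member probe sets called was 0 with ET-3, where it was 1. It was 0 with the mean of the endothelins, where it was 2. None of the 15521 probe sets was called without the block either. With no intensity trend both member counts were 0. Calls over all 15521 probe sets then went from 410 to 170 with ET-3 and from 758 to 438 with the mean. With no filter the member count with ET-3 was 0, and 273 of all 31042 probe sets were called. With only the groups of the contrast it was 0 too. Quantile normalization left 1 (Ret) with the mean (630 over all probe sets). Median centring gave 3 with ET-2, where it was 0 (1218 over all, from 249). Leaving out arrays or replicate numbers gave 0 to 1 with ET-1, 0 to 1 with ET-3 and 0 to 1 with the mean. It gave 0 with ET-2 in every case. Over all probe sets the calls then ran from 23 to 575 with ET-1 and from 27 to 404 with ET-2. They ran from 43 to 685 with ET-3 and from 224 to 1014 with the mean. The count for pairs of endothelins was 0 in all settings run. The causes were not tested.

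Of 1155 values of 52 member changes under other settings, 43 had another sign than the main value, none of them of a change called in the main fit. Removing the block or trend, altering the filter, or keeping only the groups of the contrast leaves the estimate unchanged. Leaving out an array of a group outside the contrast does so too. In these settings the sign was fixed in advance. The change in Ret 1370989_at ran from -0.33 to -0.19 for the mean of the endothelins and from -0.40 to -0.26 with ET-3, and that in Ntrk2 1368972_at from -0.26 to -0.17 for the mean. Ngfr, Cntfr and Lifr were below the filter signal on average, and in the fit over all probe sets the 95% interval of the mean change was -0.36 to 0.37 for Ngfr and -0.65 to 0.79 for Lifr 1369228_at on the log2 scale.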
